A study of Mus musculus with 6 samples.

Results

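The 10 genes described here encode the MYC, MAX and MXD network of transcription factors, and they were taken by name from the 19938 genes measured in 4T1, a mammary carcinoma cell line of the mouse. They are Myc, Mycn, Max, Mxd1, Mxd3, Mxd4, Mxi1, Mnt, Mga and Mlx, and all 10 were found, each with 1 probe set that named no other gene. Cells were seeded at 750000 per dish of 10 cm, grown for 24 h in medium with 10% serum, and given fresh medium that held 500 nM TKI258 or the vehicle DMSO for another 16 h. TKI258 (dovitinib) blocks receptor tyrosine kinases, among them the receptors for FGF, PDGF and VEGF. RNA from 3 separate dishes of each group was hybridised to Affymetrix arrays, which gave 3 TKI258 and 3 DMSO arrays.

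MYC proteins bind DNA only as dimers with MAX, through a basic helix-loop-helix leucine zipper, at E-box sequences such as CACGTG. They raise transcription of genes for growth, ribosome assembly and metabolism. MXD1, MXD3, MXD4, MXI1, MNT and MGA also pair with MAX and compete with MYC for these sites, and the MXD proteins, MXI1 and MNT recruit the SIN3 co-repressor there. MLX is a MAX-like partner that pairs with MNT, some MXD proteins, and MondoA and ChREBP, the glucose-sensing factors encoded by Mlxip and Mlxipl.

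After TKI258, Mxd4 rose 4.28-fold, Mxd1 rose 1.25-fold, Myc fell to 0.628 times its DMSO signal and Mlx fell to 0.751 times. Of the 10 members 2 rose, 2 fell and 6 did not pass an adjusted p of 0.05 in limma, a linear model with variance shared across genes. The background over all 19938 genes was 27% past the threshold, with 14.4% higher and 12.6% lower, against 40% of the members. Of the members 1 lay below 5.01 log2 units, the median of all probe sets. Among the 11215 genes above it, fitted alone, 3040 were higher and 2817 lower, against 3 members higher and 3 lower. The partner and target lists below also hold mostly genes above that median. Shares over all genes, which include dim genes, are therefore a low background for them. The median log2 change (TKI258 minus DMSO) was -0.01 over the members and 0.01 over all genes.

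Myc, the founding member and the growth-promoting factor of most dividing cells, gave 10.07, 10.13 and 10.12 log2 units on the TKI258 arrays, against 10.76, 10.74 and 10.83 on the DMSO arrays. Every TKI258 array lay below every DMSO array, with a span of 0.07 log2 units over the TKI258 arrays and 0.08 over the DMSO arrays. The log2 change was -0.67 (SE 0.06, 95% interval -0.81 to -0.53, adjusted p = 6.13e-05), and 459 genes of 19938 fell further. Mycn, the paralog best known from neuroblastoma and embryonic tissue, had 3.99, 3.74 and 3.68 log2 units with TKI258 and 3.78, 3.66 and 3.56 with DMSO. These groups overlapped, and the difference of 0.14 did not pass (95% interval -0.08 to 0.35, adjusted p = 0.363). It was 0.04 without TKI258 replicate 1, 0.09 without DMSO replicate 3 and at most 0.20 when another array was left out. The Mycn signal lay below 5.01 log2 units, the median of all probe sets, where RMA values are shrunken and no detection call exists.

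Max, which encodes the partner shared by the MYC and MXD proteins, had 9.35, 9.54 and 9.67 log2 units with TKI258, against 9.72, 9.77 and 9.85 with DMSO. The groups did not overlap, but the TKI258 arrays spread over 0.32 log2 units. The log2 change of -0.26 had a 95% interval of -0.46 to -0.06 and missed the threshold (SE 0.09, adjusted p = 0.0563). Without TKI258 replicate 3, the highest of the treated arrays, it was -0.34 (adjusted p = 0.0196), and without TKI258 replicate 1, the lowest, -0.18 (adjusted p = 0.147). With all arrays kept, Max passed with trend and robust eBayes (adjusted p = 0.0130), with array weights (0.0349) and without dim genes (0.0258), so its call depends on the setting.

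**Figure D1:**
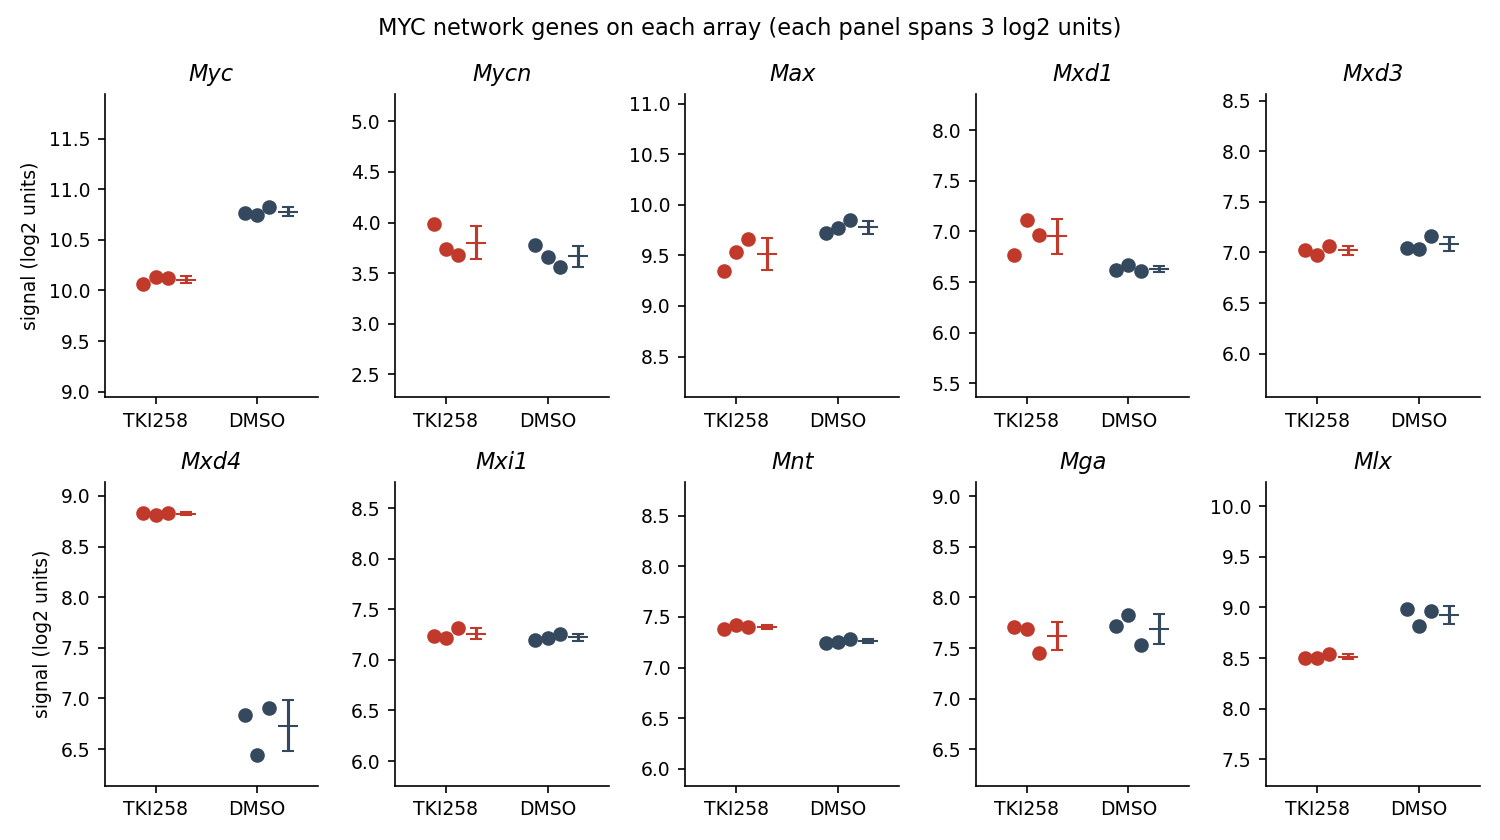
Signal of the 10 network genes in log2 units on each array, with TKI258 at the left and DMSO at the right of each panel. Points are arrays in no order, the bar beside them is the mean ± SD (n = 3 each), and every panel spans 3 log2 units around its own centre. Mxd4 is near 8.83 in the TKI258 group, above all DMSO arrays, while Myc and Mlx are lower with TKI258.

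Among the MXD antagonists, Mxd4, which encodes the MAX partner formerly named MAD4, had 8.83, 8.81 and 8.83 log2 units with TKI258 and 6.84, 6.44 and 6.91 with DMSO. The TKI258 arrays lay within 0.02 log2 units of one another, whereas DMSO replicate 2 was lower than the other DMSO arrays. The log2 change was 2.10 (SE 0.11, 95% interval 1.84 to 2.35, adjusted p = 3.52e-06), and 22 of 19938 genes had a larger rise. Without DMSO replicate 2 the change was 1.95 (adjusted p = 6.65e-06).

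Mxd1, the MXD gene usually linked to the end of cell division during differentiation, had 6.77, 7.12 and 6.96 log2 units with TKI258 and 6.62, 6.67 and 6.61 with DMSO. The groups did not overlap, with TKI258 replicate 1 nearest to the DMSO arrays. The log2 change was 0.32 (SE 0.09, 95% interval 0.12 to 0.52, adjusted p = 0.0261). That call was lost without TKI258 replicate 2, TKI258 replicate 3, DMSO replicate 1, DMSO replicate 2 or DMSO replicate 3, where the adjusted p was 0.0791, 0.0644, 0.0766, 0.0568 and 0.0809. Its 16 alternatives ranged from 0.00528 to 1.00.

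Mxd3, the MXD member expressed in dividing cells in S phase, ranged over 6.97 to 7.06 log2 units with TKI258 and 7.03 to 7.17 with DMSO. Mxi1, formerly named MAD2 among the MXD proteins, ranged over 7.22 to 7.32 with TKI258 and 7.20 to 7.26 with DMSO. The groups overlapped for both genes and neither passed. The log2 change was -0.06 for Mxd3 (95% interval -0.21 to 0.09, adjusted p = 0.575) and 0.03 for Mxi1 (95% interval -0.11 to 0.18, adjusted p = 0.763). Both intervals end below that of Mxd4, which starts at 1.84.

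Mnt, a widely expressed antagonist present in resting and dividing cells, had 7.38, 7.42 and 7.41 log2 units with TKI258 and 7.25, 7.26 and 7.29 with DMSO. All TKI258 arrays were above all DMSO arrays by a small margin, and the change of 0.14 did not pass (95% interval 0.01 to 0.27, adjusted p = 0.121). Mga, which encodes a very large MAX partner that also carries a T-box domain, had 7.71, 7.69 and 7.46 log2 units with TKI258 and 7.71, 7.83 and 7.53 with DMSO. Its groups overlapped, with a log2 change of -0.07 (95% interval -0.30 to 0.15, adjusted p = 0.659).

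Mlx had 8.50, 8.50 and 8.54 log2 units with TKI258 and 8.98, 8.82 and 8.97 with DMSO. The groups were well separated, and DMSO replicate 2 was again the lowest of the DMSO arrays. The log2 change was -0.41 (SE 0.07, 95% interval -0.57 to -0.26, adjusted p = 0.00169). Over the network, 6 of 10 members had groups that did not overlap, against 40.2% of all genes. For those 6 an exact two-sided permutation test over the arrays gave p = 0.1, which is the smallest p that 3 against 3 arrays allow. Groups that do not overlap always give this p, so the test adds nothing to the separation itself.

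**Figure D2:**
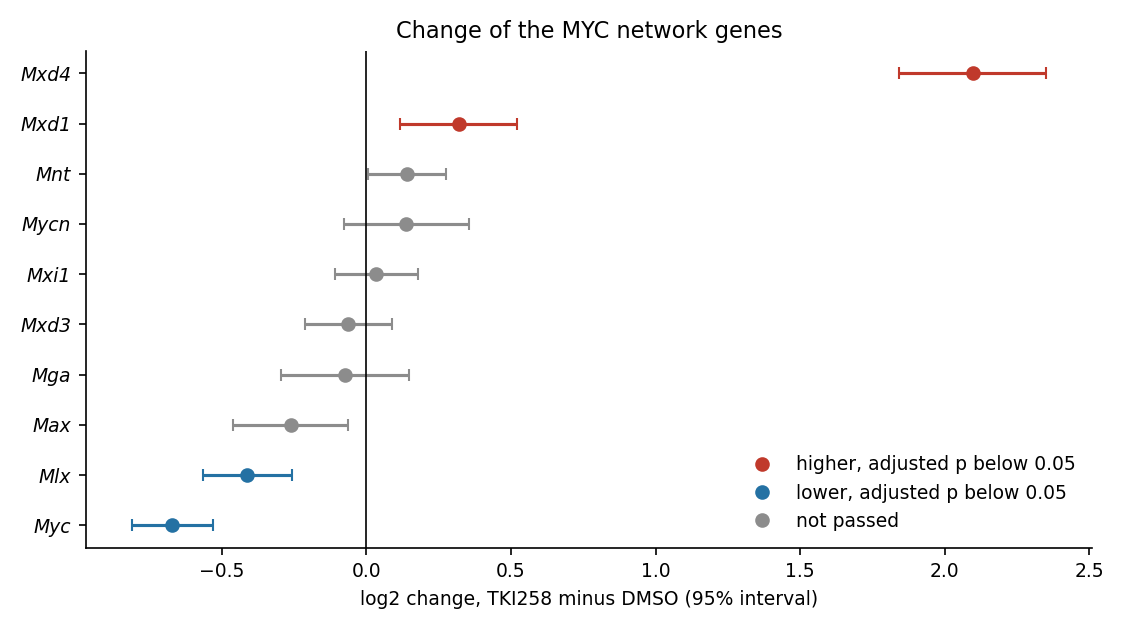
Log2 change (TKI258 minus DMSO, horizontal axis) of the 10 network genes, with 95% intervals from limma (n = 3 arrays each). The interval of Mxd4, 1.84 to 2.35, overlaps no other, while those of Myc and Mlx lie below 0 and overlap each other.

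In the order of their changes, Mxd4 stood apart from Mxd1, while the intervals of Mxd1, Mnt, Mycn and Mxi1 overlapped. At the other end the intervals of Myc and Mlx overlapped, as did those of Mlx and Max. The differences between members were not tested. Profiles over the 6 arrays, each centred on the gene's own mean, were compared by Euclidean distance in log2 units to find genes that moved most like the members with the largest rise and fall. Nearest to Mxd4 were Tlr2, a bacterial lipoprotein receptor, Mgst1, a microsomal glutathione transferase, Rhou, a small GTPase, and Tcp11l2, at distances of 0.302, 0.396, 0.398 and 0.410. Nearest to Myc were Nsun2, an RNA cytosine methyltransferase, Noc4l, a ribosome assembly factor, the MAP kinase phosphatase gene Dusp7 and the mismatch repair gene Pms2, at distances of 0.0200, 0.0623, 0.0641 and 0.0737. These distances mostly reflect a change of similar size between the groups.

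Promoter windows of 250 bases before to 50 after each RefSeq start (build GRCm38.p6) were searched for the E-box CACGTG, which reads the same on both strands. A window was in the table for 9 of the 10 members, and Myc had none there. Windows of 4 of these 9 genes held a match, against 8.09% of 27025 gene symbols. The 4 are printed because they are the network genes with the letters that the network's own dimers recognise. They run 5′ to 3′ on the gene's strand from 250 bases before to 30 after the start, with each CACGTG in capitals, for Mxd4 at chr5:34187681-34187960 (minus strand), Mlx at chr11:101087040-101087319 (plus strand), Max at chr12:76962219-76962498 (minus strand) and Mnt at chr11:74830674-74830953 (plus strand).
Mxd4: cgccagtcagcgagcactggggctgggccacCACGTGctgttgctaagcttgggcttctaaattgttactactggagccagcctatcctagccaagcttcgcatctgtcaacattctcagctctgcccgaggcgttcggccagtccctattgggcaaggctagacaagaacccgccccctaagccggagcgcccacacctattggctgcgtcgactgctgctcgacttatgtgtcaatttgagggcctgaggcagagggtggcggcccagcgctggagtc
Mlx: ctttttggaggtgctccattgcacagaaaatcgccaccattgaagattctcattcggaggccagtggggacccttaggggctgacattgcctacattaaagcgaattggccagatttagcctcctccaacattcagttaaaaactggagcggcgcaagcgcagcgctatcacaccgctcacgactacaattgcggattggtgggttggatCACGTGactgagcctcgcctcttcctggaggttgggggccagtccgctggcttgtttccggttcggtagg
Max: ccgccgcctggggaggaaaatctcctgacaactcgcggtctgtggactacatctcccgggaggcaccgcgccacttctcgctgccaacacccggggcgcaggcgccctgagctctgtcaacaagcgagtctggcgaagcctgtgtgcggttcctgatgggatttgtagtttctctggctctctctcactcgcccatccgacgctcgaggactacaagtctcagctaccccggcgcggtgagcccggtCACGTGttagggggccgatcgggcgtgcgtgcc
Mnt: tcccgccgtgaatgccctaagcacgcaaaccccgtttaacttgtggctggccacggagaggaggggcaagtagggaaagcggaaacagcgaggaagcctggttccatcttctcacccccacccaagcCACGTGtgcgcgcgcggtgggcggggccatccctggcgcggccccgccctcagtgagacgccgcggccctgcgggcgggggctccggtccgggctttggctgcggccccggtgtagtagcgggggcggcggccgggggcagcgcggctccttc

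The match begins 219 bases before the start in Mxd4, 40 in Mlx, 3 in Max and 123 in Mnt. These distances are to the start used for each window, and the gene records of Mlx, Max and Mnt reach further upstream. The record of Mlx begins at base 101086707, so its printed stretch lies inside the gene. Mxd4, Mlx, Max and Mnt did not move together, with log2 changes of 2.10, -0.41, -0.26 and 0.14, the last pair not past the threshold. Of the 5 members whose windows held no match, Mxd1 rose and the other 4 did not pass. A match is a description of these letters and does not show that a factor was bound.

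The listed genes that MYC is known to activate fell almost throughout. That list was drawn up with earlier results of these data known. Of its genes 49 were measured, of which 43 fell, 0 rose and 6 did not pass, against 12.6% lower among all genes. At an unadjusted p below 0.05 in limma 0 rose as well. Their median log2 change was -0.65. Odc1, which makes the first polyamine, had 10.39, 10.38 and 10.27 log2 units with TKI258 and 11.80, 11.71 and 11.76 with DMSO. Its groups were far apart, at a log2 change of -1.41 (SE 0.07, adjusted p = 1.84e-06). Polr1b, a subunit of the polymerase that makes ribosomal RNA, changed by -1.11, Dkc1, a pseudouridine synthase of ribosomal RNA, by -0.96 and the ribosome assembly gene Mrto4 by -0.91. The adjusted p of these 3 lay between 6.43e-06 and 1.13e-05.

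**Figure D3:**
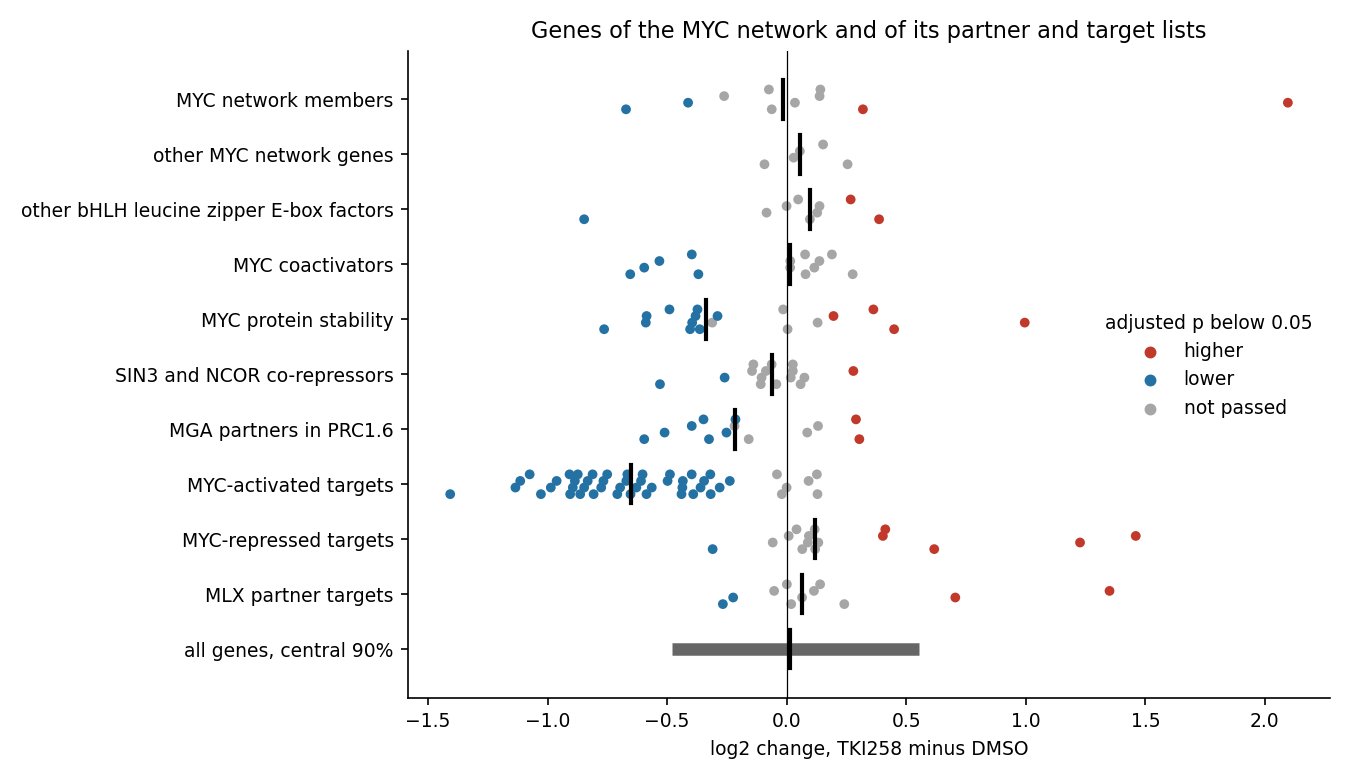
Log2 change (TKI258 minus DMSO, horizontal axis) of each measured gene in the network and in 9 related lists, coloured by limma call, with a black bar at each list's median. The bottom row gives the central 90% of all 19938 genes, -0.48 to 0.55. The MYC-activated targets lie mostly below 0 with a median of -0.65.

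A CACGTG match was held by windows of 12 of the 39 MYC-activated targets in the promoter table, against 8.09% of all gene symbols there. Those 12 had a median log2 change of -0.44, with 10 lower, and the 27 without a match had -0.75, with 25 lower. The difference between these medians was not tested. Bases outside the windows were not searched, so a gene without a match may hold CACGTG elsewhere. The windows with the most matches belong to Cdk4 and Apex1, and they are shown because one of these genes fell and the other did not. Cdk4, the cyclin D partner kinase gene, lies at chr10:127063285-127063564 (plus strand) and Apex1, which encodes a base excision repair endonuclease, at chr14:50924699-50924978 (plus strand).
Cdk4: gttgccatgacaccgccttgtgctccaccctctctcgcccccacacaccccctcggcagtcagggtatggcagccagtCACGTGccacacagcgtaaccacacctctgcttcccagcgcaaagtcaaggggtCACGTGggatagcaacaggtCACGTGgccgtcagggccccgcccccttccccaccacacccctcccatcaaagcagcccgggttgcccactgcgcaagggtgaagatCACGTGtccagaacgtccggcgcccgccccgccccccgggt
Apex1: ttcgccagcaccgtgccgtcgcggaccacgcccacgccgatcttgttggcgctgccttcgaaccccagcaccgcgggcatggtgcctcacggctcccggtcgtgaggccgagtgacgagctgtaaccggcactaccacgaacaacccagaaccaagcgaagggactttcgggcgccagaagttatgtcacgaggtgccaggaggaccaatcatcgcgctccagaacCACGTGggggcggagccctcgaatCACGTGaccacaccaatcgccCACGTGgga

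Cdk4 has 4 matches, which begin 172, 118, 98 and 11 bases before its start. It had 12.18, 12.21 and 12.29 log2 units with TKI258 and 12.07, 12.08 and 12.16 with DMSO. The groups did not overlap, and the change of 0.13 did not pass (95% interval -0.02 to 0.27, adjusted p = 0.206), except with trend and robust eBayes (adjusted p = 0.0232). Apex1 has 3 matches, beginning 24 bases before its start, at base 1 and at base 22. It had 10.66, 10.72 and 10.80 log2 units with TKI258 and 11.21, 11.12 and 11.15 with DMSO, and fell by 0.43 (SE 0.07, adjusted p = 0.00115). Paics, a purine synthesis gene with 1 match, had a log2 change of 0.00 (95% interval -0.13 to 0.13).

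**Figure D4:**
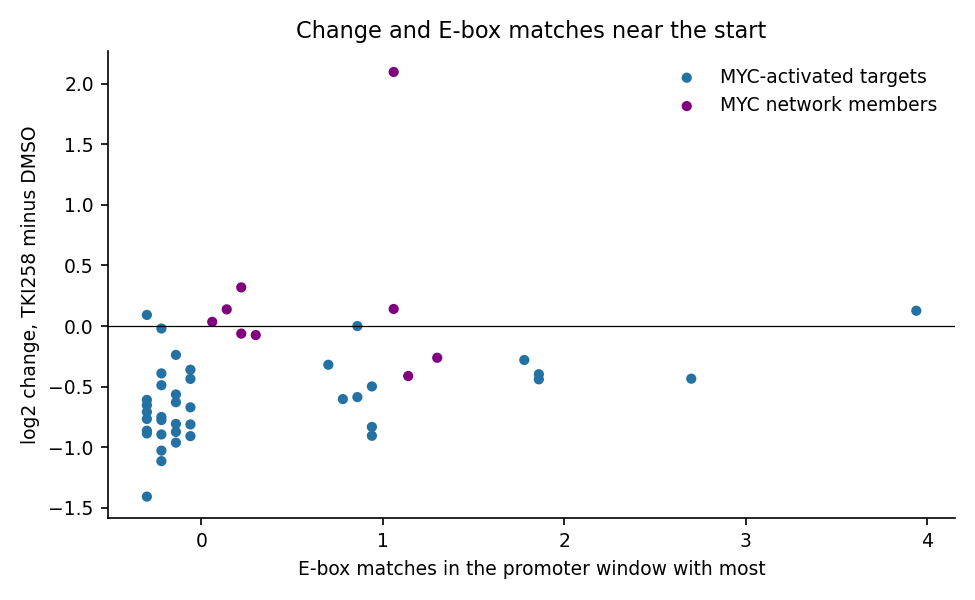
Log2 change (TKI258 minus DMSO, vertical axis) against the number of CACGTG matches in the promoter window with most matches, for 39 MYC-activated targets and 9 network members. Each point is a gene, spread sideways for legibility. Targets with 0 matches have a median of -0.75, those with any match -0.44, and Cdk4 with 4 matches lies above 0.

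Of 15 measured genes that MYC is known to repress 5 rose, 1 fell and 9 did not pass, against 14.4% higher and 12.6% lower over all genes, and their median log2 change was 0.12. Only 2 of these 15 genes lay below the median probe set. Among the 11215 genes above it, fitted alone, 3040 were higher and 2817 lower, against 5 calls on this list. Thbs1, a gene with many other known regulators that encodes the angiogenesis inhibitor thrombospondin 1, had 11.58, 11.54 and 11.36 log2 units with TKI258 and 10.06, 10.10 and 9.94 with DMSO. The groups were far apart, at a log2 change of 1.46 (SE 0.08, adjusted p = 3.83e-06). The stress-response gene Gadd45a rose by 1.23, Ndrg1, named for its repression downstream of N-myc, by 0.62, and the CDK inhibitor genes Cdkn1b and Cdkn2c by 0.40 and 0.41. Ndrg2, whose mean of 4.94 log2 units lay below the median probe set, had -0.31 (adjusted p = 0.0238). It lost its call without TKI258 replicate 1, TKI258 replicate 2, DMSO replicate 2 or DMSO replicate 3, at adjusted p of up to 0.0947 when an array was left out.

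Among genes for MYC coactivators 0 rose in limma (2 at an unadjusted p below 0.05) and 5 of 13 fell, with a median log2 change of 0.01, against 14.4% of all genes higher and 12.6% lower. However, 0 of these 13 genes lay below the median probe set. Among the 11215 genes above it, fitted alone, 3040 were higher and 2817 lower, against 5 calls on this list. The members lower after TKI258 were Ruvbl2 at -0.65 and Ruvbl1 at -0.53, which encode paired ATPases of chromatin complexes, Wdr5 at -0.60, the histone acetyltransferase gene Kat2a at -0.37 and the actin-like subunit gene Actl6a at -0.40. Their adjusted p lay between 9.23e-05 and 0.00499. The scaffold gene Trrap and the acetyltransferase genes Ep300, Crebbp and Kat5 did not pass.

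Genes that set the stability or activity of the MYC protein went both ways, with 4 higher, 10 lower and 4 not passed among 18, and a median of -0.34. Of all genes 14.4% were higher and 12.6% lower. Skp2, a ubiquitin ligase subunit that both marks MYC and aids its activity, fell by 0.76 (SE 0.07, adjusted p = 4.85e-05). Cip2a, whose product shields MYC from a phosphatase, and Usp36, a nucleolar enzyme that removes ubiquitin from MYC, both changed by -0.59. Pim2, a survival kinase gene, had 8.72, 8.87 and 8.95 log2 units with TKI258, against 7.90, 7.67 and 7.99 with DMSO, a log2 change of 1.00 (SE 0.10, adjusted p = 8.06e-05). Its relative Pim1 rose by 0.45, the ubiquitin ligase gene Btrc by 0.36, and Gsk3b, the kinase whose phosphorylation marks MYC for breakdown, by 0.20 (adjusted p = 0.0406). Pim3, of the same kinase family, went the other way at -0.40 (adjusted p = 0.00524). The ubiquitin ligase gene Fbxw7 was also lower, at -0.29 (adjusted p = 0.0217). The Gsk3b call was lost without each of the 6 arrays in turn, at adjusted p of 0.0540 to 0.134, and with arrays centred on their medians (adjusted p = 0.101). The arrays measure RNA, so the amount of MYC protein was not measured.

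Of 15 measured genes for the SIN3 and NCOR co-repressors, the first of which works with MXD4 and MXD1, 1 rose, 2 fell and 12 did not pass, with a median log2 change of -0.06. The 20% past the threshold is below the 27% over all genes, and 0 of these 15 genes lay below the median probe set. Among the 11215 genes above it, fitted alone, 3040 were higher and 2817 lower, against 3 calls on this list. The chromatin-reader genes Ing2 and Ing1 had -0.53 (adjusted p = 0.000725) and -0.26 (adjusted p = 0.0189), and Arid4b had 0.28 (adjusted p = 0.0222). The Ing1 call was lost without TKI258 replicate 2, DMSO replicate 2 or DMSO replicate 3, at adjusted p of up to 0.0745. The Arid4b call was lost without TKI258 replicate 2, TKI258 replicate 3 or DMSO replicate 3, at adjusted p of up to 0.0772. Sin3a itself had -0.14 (adjusted p = 0.147) and the deacetylase gene Hdac1 -0.04 (adjusted p = 0.674). The co-repressor list counted 1 call without TKI258 replicate 2 and 1 without DMSO replicate 3.

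MGA works in a Polycomb complex, PRC1.6, and its partner genes were lower in 7 of 13 cases and higher in 2, with a median of -0.22, although Mga itself did not pass. Over all genes 12.6% were lower and 14.4% higher. Wdr5 was shared with the coactivators. Pcgf6 and L3mbtl2, which define this complex, changed by -0.51 and -0.40, and the E2F partner gene Tfdp1 by -0.35, at adjusted p of 0.000278 to 0.00344. The histone methyltransferase gene Ehmt2 rose by 0.30 and the ubiquitin ligase gene Ring1 by 0.29, at adjusted p of 0.00725 and 0.0123.

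On the MLX side of the network, 2 of 11 target genes of its partners rose, 2 fell and 7 did not pass, with a median of 0.06. The share past the threshold was 36.4%, against 27% of all genes, but only 1 of these 11 genes lay below the median probe set. Among the 11215 genes above it, fitted alone, 3040 were higher and 2817 lower, against 4 calls on this list. Txnip, the glucose-responsive inhibitor of glucose uptake, had 9.84, 9.71 and 10.02 log2 units with TKI258 and 8.38, 8.54 and 8.60 with DMSO. Its groups were far apart, with a log2 change of 1.35 (SE 0.09, adjusted p = 1.32e-05), opposite in sign to Mlx. The fructokinase gene Khk rose by 0.71 (adjusted p = 0.00246). The glycerol phosphate dehydrogenase gene Gpd1, at a mean of 4.23 log2 units below the median probe set, had -0.22 (adjusted p = 0.0311) and the liver pyruvate kinase gene Pklr -0.27 (adjusted p = 0.0447). The Gpd1 call was lost with trend and robust eBayes (adjusted p = 0.0753) and without TKI258 replicate 1, TKI258 replicate 2, DMSO replicate 1 or DMSO replicate 2, at adjusted p of up to 0.122. The Pklr call was lost with trend and robust eBayes (adjusted p = 0.0514) and without TKI258 replicate 2 or any DMSO replicate, at adjusted p of up to 0.128. Without DMSO replicate 1, and likewise without DMSO replicate 2, the list held 2 calls. Of 5 further network genes 0 passed in limma, and 1 had an unadjusted p below 0.05. Mlxip, which encodes MondoA, came nearest, with 7.30, 7.08 and 7.00 log2 units with TKI258 and 6.85, 6.88 and 6.88 with DMSO (log2 change 0.25, adjusted p = 0.0532). It passed without TKI258 replicate 3 (adjusted p = 0.0244), and Mycl had 0.15 (adjusted p = 0.192).

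Epithelial markers of 4T1 cells were measured for a check of the label. The keratin gene Krt8 averaged 11.80 log2 units with TKI258 and 11.92 with DMSO, while Krt5 averaged 4.08 with TKI258 and 4.17 with DMSO, below the median probe set. Of 12 mammary epithelial markers 6 rose and 2 fell, against 14.4% higher and 12.6% lower over all genes. Krt14, the basal partner of Krt5, averaged 7.31 log2 units with TKI258 and 5.52 with DMSO, a log2 change of 1.79 (adjusted p = 8.77e-05). The cadherin gene Cdh1 rose by 1.09, Krt19 by 0.94, Cldn4 by 0.89, Esrp1 by 0.47 and Cldn3 by 0.24, while Krt18 changed by -0.50 and Krt7 by -0.39. Of 10 fibroblast markers 2 rose and 8, among them Col1a1, Col3a1, Fap, Thy1 and Postn, did not pass. The 2 were Pdgfra, at 9.83 log2 units with TKI258 and 8.33 with DMSO, and Dcn, at 5.79 with TKI258 and 3.77 with DMSO. The linear signal summed over all 10 markers was 1189 to 1263 on TKI258 arrays and 572 to 604 on DMSO arrays. Over the 9 markers other than Pdgfra it was 312 to 330 on TKI258 arrays and 256 to 270 on DMSO arrays. Of 10 macrophage markers Cd68 and Cd14 rose and Fcer1g, below the median probe set, fell, with summed signals over all 10 of 332 to 441 on TKI258 arrays and 261 to 280 on DMSO arrays. Ptprc, the defining leukocyte gene, averaged 3.73 log2 units with TKI258 and 3.76 with DMSO. In limma 0 of 6 lymphocyte and 0 of 5 adipocyte markers passed, and 0 of either at an unadjusted p below 0.05, while 1 of 8 endothelial markers rose. The part of these differences in the network's values was not tested. In bulk RNA, fewer cells of a kind and less RNA per cell cannot be told apart.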

How the data were processed

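Per the labels, RNA was amplified and biotin-labelled before hybridisation, and the submitters' processing notes name RMA, affy and limma, with no version or role. The deposited table holds 35557 probe sets, and its values were read as log2 signals from their range and the tools named, since no source used here states the scale. RMA normally forces arrays to a common distribution, so a shift shared by all genes would not show. Array medians were 4.97 to 5.04 log2 units. Precision is limited by the number of arrays.

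Probe sets with exactly 1 symbol in the 2016 platform annotation (21789) were used, the brightest per gene over all arrays, with no filter. The groups were compared with limma 3.58.1 (R 4.3.3, lmFit and eBayes; TKI258 minus DMSO), two-sided, adjusted by Benjamini-Hochberg over 19938 genes at a threshold of 0.05. The dishes are labelled as biological replicates. The fit was also run on simulated data with independent normal values, which does not test its assumptions on these arrays. Probe sets of some listed genes did not carry exactly 1 symbol, so counts cover measured genes.

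The members and the lists were chosen with earlier results of these data known. The text names all members, the 4 genes of each list with the smallest adjusted p among those past the threshold (2 where none passed), members moving against their list and the 4 profiles nearest to Myc and Mxd4. Other names (Actl6a, Cdkn2c, Apex1, Cdk4, Paics, Sin3a, Hdac1, Trrap, Ep300, Crebbp, Kat5, Pim3, Fbxw7 and the cell markers) were picked with their values in view. The alternatives were a replicate block, each array left out, repeated quantile normalization, median centring, the mean of probe sets, dim genes left out, trend and robust eBayes, array weights, an adjusted p of 0.01, limma's treat at a fold of 1.2 and single probe sets. Sequences are from RefSeq.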

Additional observations from a re-analysis of the deposited data

How the results depend on the processing

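Mxd4, Myc, Mga, Mxd3, Mxi1 and Mycn kept their side of the threshold under every alternative run, with log2 changes of 1.95 to 2.18 for Mxd4 and -0.70 to -0.62 for Myc. Mxi1 (-0.00126 to 0.05) and Mga (-0.15 to 0.01), neither called, crossed 0. Leaving out 1 array gave 2289 to 2705 genes higher and 2026 to 2586 lower over all genes, 1 to 2 members higher and 2 to 3 lower. Those fits gave log2 changes of 0.24 to 0.41 for Mxd1 and -0.34 to -0.18 for Max. They gave 0 to 1 call among other network genes, 1 to 3 among SIN3 co-repressors and 2 to 4 among MLX partner targets. Mxd1 was not called after repeated quantile normalization (0.26), at an adjusted p of 0.01 (0.32) or in treat (0.32), which left 1 member higher each time. Treat also ended the call of Mlx (-0.41), leaving 1 member lower. The labels do not say whether the replicate numbers pair the dishes. Deviations of same-numbered arrays correlated at 0.0181, 0.0501 and 0.151, and 3 of the 6 arrays correlated best with their own number. So few arrays cannot settle the question. With the replicate block 2877 genes were higher and 2487 lower, and Max passed at -0.26 (adjusted p = 0.0318), while Gsk3b and Gpd1 did not (adjusted p = 0.0654 and 0.0565). Max also passed without dim genes (-0.26), with trend and robust eBayes (-0.26) and with array weights (-0.26), and Mnt passed without dim genes (0.14). The cause was not tested. The fit without dim genes adjusts over fewer genes and also shares variance over those genes alone. Of other network genes 1 passed without dim genes, 1 with trend and robust eBayes and 1 with array weights. At an adjusted p of 0.01 there was 1 call among SIN3 co-repressors and 2 among MLX partner targets. In treat 1057 genes were higher and 864 lower, with 1 call among other leucine zipper factors, 3 among coactivators, 5 among MYC stability genes, 1 among SIN3 co-repressors, 2 among PRC1.6 genes, 3 among MYC-repressed targets and 2 among MLX partner targets. Of the named list and neighbour genes 49 were followed through the alternatives, of which 29 kept their call throughout and 0 reversed.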

Other observations

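Other factors of the basic helix-loop-helix leucine zipper class, which read E-boxes without MAX, were measured beside the network. Of 9 such genes 2 rose, 1 fell and 6 did not pass, with a median log2 change of 0.10. The share past the threshold was 33.3%, against 27% of all genes, but only 1 of these 9 genes lay below the median probe set. Among the 11215 genes above it, fitted alone, 3040 were higher and 2817 lower, against 3 calls on this list. Tfap4, itself a known MYC target, had 7.48, 7.34 and 7.57 log2 units with TKI258, against 8.32, 8.23 and 8.37 with DMSO. The groups did not overlap, and it fell by 0.85 (SE 0.08, adjusted p = 6.08e-05). Usf1, an E-box factor active in most cells, had 7.79, 7.81 and 7.96 log2 units with TKI258, against 7.49, 7.36 and 7.55 with DMSO, and rose by 0.39 (adjusted p = 0.00485). Tfeb, a regulator of lysosome genes, rose by 0.27 (adjusted p = 0.0138), a call lost without DMSO replicate 1 or DMSO replicate 2, at adjusted p of up to 0.0643. The windows of 7 of these 9 genes were in the promoter table, and 0 held CACGTG, against 8.09% of all gene symbols there.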
